A study of Homo sapiens with 6 samples.

Results

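Messenger RNA levels of 10 enzymes of fatty acid and membrane lipid metabolism were examined in the A375 line, which was established from a human melanoma. Most of them activate, desaturate or elongate fatty acids or place them in membrane lipids, and PLA2G6, POR and AGPS have other roles, given below. The genes were ACSL3, ACSL4, LPCAT3, FADS1, FADS2, ELOVL5, SCD, PLA2G6, POR and AGPS. They were chosen by symbol, with no measured value in the rule of choice, though earlier results of these data were known. All 10 were found among the 28395 genes of the deposited table. The cells, labelled WT in genotype, received oil at 0.01% for 6 h. The oil was either plain olive oil in the control group (OLO) or the ozonated oil (OZO), and each group had 3 libraries, 6 in all. The libraries are labelled as separate samples of 1 line, and the study describes its transcriptomic replicates of this line as independent experiments.

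The deposited table gives 1 level per gene, the authors' mean log2 CPM (counts scaled to a common library size) over all 6 libraries of both oils, and the authors' own comparison of OZO with OLO. That comparison was not used here. The levels below are therefore those of A375 cells averaged over both oils, they have no spread between libraries, and how any member differed between OZO and OLO was not analysed here. The lowest values of the table imply a geometric mean of 18409902 counts per library, after the authors' scaling, and the depth of each library is unknown. At that depth 21383 genes were detected with 1 read or more over the libraries and 13773 had at least 10 implied reads per library, a geometric mean over the libraries. In bulk RNA, fewer cells that express a gene and less RNA per cell cannot be told apart.

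Fatty acids enter lipid metabolism only after acyl-CoA synthetases have joined them to coenzyme A. Desaturases add double bonds and elongases add carbons, and lysophospholipid acyltransferases then place the acyl chains in phospholipids, from which phospholipases A2 release them again. Polyunsaturated chains in phospholipids are the main substrate of lipid peroxidation, the reaction that drives ferroptosis, whereas monounsaturated chains are poorly oxidised. Plasmalogens and other ether lipids, whose synthesis begins in peroxisomes, can carry such polyunsaturated chains. Cytochrome P450 oxidoreductase passes electrons from NADPH to microsomal enzymes.

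The label of the cells was compared with marker genes first. Of 10 melanocyte and melanoma markers 7 had at least 10 implied reads per library, led by GPNMB with 1256, SOX10 with 919 and MITF with 499. Of the pigment genes on the list, TYR had no read, DCT had 4.74, PMEL had 5.75, TYRP1 had 11.0 and MLANA had 36.6 implied reads. Of 5 keratinocyte markers 1 reached 10 implied reads, which was KRT14 with 77.5. Of 4 fibroblast markers 2 did, PDGFRB with 102 and COL1A1 with 22.3, and of 4 leukocyte markers 2 did, CD68 with 603 and LYZ with 79.9, while PTPRC had 1.07 and CD3E had 0.100.

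All 10 members had at least 10 implied reads per library, beside 13773 of all 28395 genes. SCD, the stearoyl-CoA desaturase that makes monounsaturated fatty acids, had the highest level, with a mean log2 CPM of 8.95 or 494 CPM. PLA2G6, a calcium-independent phospholipase A2, had the lowest, with a mean log2 CPM of 1.29 or 2.45 CPM. The median of the 10 members was 6.77, beside 4.47 over all genes with at least 10 implied reads, and 8 of the 10 lay above that median. Ranked by CPM among the genes with a read, 7 members were above the 75th percentile, from SCD at 98.7 to LPCAT3 at 86.5. POR, FADS2 and PLA2G6 were at percentiles 70.0, 66.1 and 46.6. Among genes with at least 10 implied reads, these 3 were lower, at percentiles 53.4, 47.4 and 17.0. The members together made up 0.156% of the summed CPM of all genes.

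**Figure D1:**
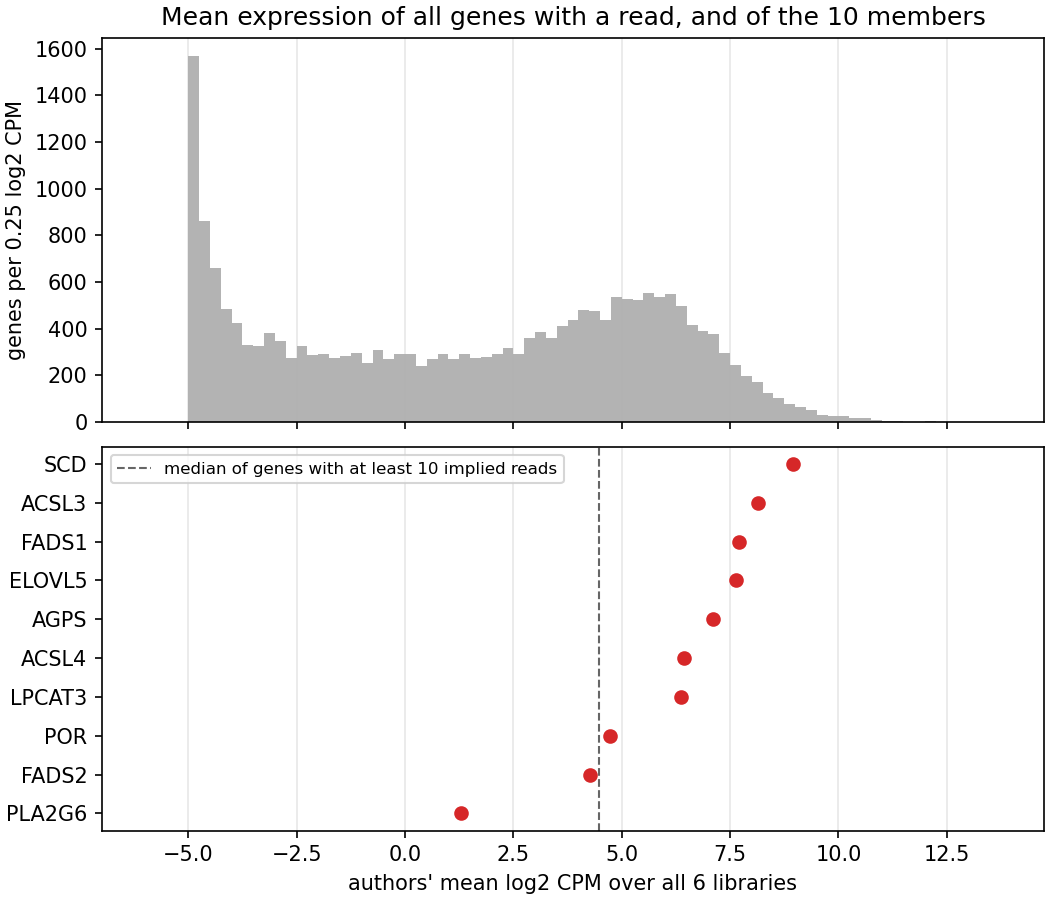
The upper panel counts all genes with a read by the authors' mean log2 CPM, and the lower panel plots the same quantity for the 10 members, with a dashed line at 4.47, the median of genes with at least 10 implied reads. The points run from PLA2G6 at 1.29 to SCD at 8.95, and only FADS2 and PLA2G6 lie left of the line.

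Long transcripts give more reads, so levels of different genes were compared as CPM per kilobase of the canonical transcript. On this scale the order was SCD at 94.2, ELOVL5 at 72.1, ACSL3 at 50.8, FADS1 at 48.1, LPCAT3 at 37.2, AGPS at 18.1, ACSL4 at 17.7, POR at 10.9, FADS2 at 6.27 and PLA2G6 at 0.744 CPM per kilobase. The median over genes with at least 10 implied reads and a transcript length was 7.39, and 8 members were above it. With the union of exons as length, POR lay just below the median of that scale, at percentile 49.0. No spread between libraries is known, so whether neighbours in this order differ cannot be said. ACSL3 and FADS1 changed places with the longest transcript or the union of all exons as length, and no other pair of members did.

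**Figure D2:**
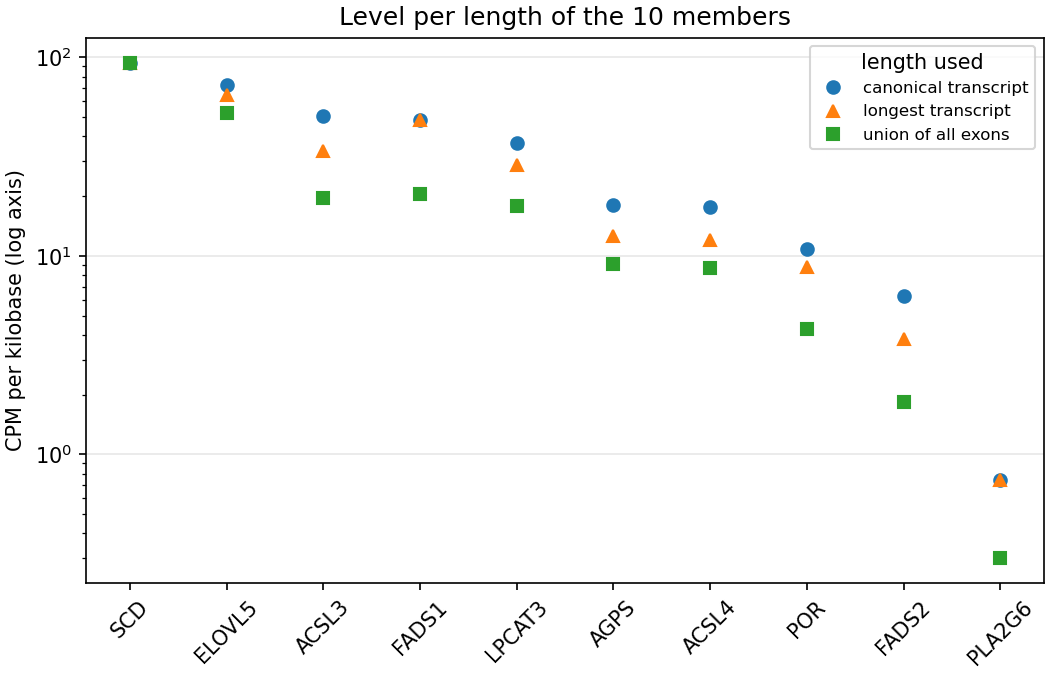
Each point is the CPM per kilobase of 1 member on a log axis, with the length taken from the canonical transcript, the longest transcript or the union of all exons. SCD is highest and PLA2G6 lowest under each length, and SCD has 1 annotated transcript, so its value stays at 94.2.

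The acyl-CoA synthetases ACSL3 (chromosome 2, 222861036 to 222944639) and ACSL4 (chromosome X, 109641335 to 109733257) take different substrates. ACSL4 prefers arachidonic and other long polyunsaturated fatty acids, and ACSL3 is known for activating monounsaturated ones. ACSL3 had a mean log2 CPM of 8.15 from 5218 implied reads per library, and ACSL4 had 6.43 from 1590. Per kilobase the level of ACSL3 was 2.88-fold that of ACSL4, and 2.81-fold and 2.27-fold with the longest transcript and the union of exons. None of the 9 other synthetases of the pathway list was above ACSL3 per kilobase. The highest of them was ACSL1 with 20.2 CPM per kilobase, the only one above ACSL4. The coding sequences of ACSL3 and ACSL4 were 70.6% identical over 1976 aligned bases, with no identical run beyond 26 bases, which is shorter than a read of 150 bases.

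Among the desaturases, SCD (chromosome 10, 100347233 to 100364826) stood above FADS1 and FADS2. FADS2 (chromosome 11, 61816203 to 61867354) encodes the delta-6 desaturase that begins the synthesis of long polyunsaturated fatty acids, and FADS1 (chromosome 11, 61799627 to 61817003) encodes the delta-5 desaturase that acts after elongation. The mean log2 CPM was 7.71 for FADS1 and 4.28 for FADS2, from 3862 and 356 implied reads per library. Per kilobase the level of FADS1 was 7.67-fold that of FADS2, and 12.6-fold with the longest transcript. SCD was 15.0-fold above FADS2 per kilobase, and 51.3-fold with the union of exons. Of the 5 other desaturases none was above SCD per kilobase. DEGS1, the dihydroceramide desaturase, was the highest of them with 79.1 CPM per kilobase, and FADS6 and DEGS2 had no read.

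SCD has a processed pseudogene, SCDP1, whose sequence was 96.7% identical to the SCD coding sequence over an alignment of 1080 bases. A second processed pseudogene matched 135 bases at 94.1% identity. Part of the SCD level is therefore uncertain where reads could be split. Copies were sought for the coding sequence only, and the rest of the SCD transcript of 5245 bases was not searched. FADS1 and FADS2 lie head to head on opposite strands, and 490 bases of their annotated exons overlapped, none of them between the canonical transcripts. Yet 144 coding bases of canonical FADS1 matched a FADS2 transcript at 100% identity, and 150 of canonical FADS2 matched a FADS1 transcript. FEN1, on the strand of FADS2 with a mean log2 CPM of 7.58, shared 49 bases of annotated FADS2 exons. Whether the counting used strand is not stated, so the levels of FADS1 and FADS2 and their fold are uncertain in part.

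ELOVL5 (chromosome 6, 53267404 to 53348950), which elongates polyunsaturated fatty acids, had a mean log2 CPM of 7.64 from 3672 implied reads per library. Of the 11 other genes of the elongation cycle 1 was above it per kilobase, HSD17B12 with 97.7, which encodes the ketoacyl-CoA reductase of the cycle. With the longest transcript HSD17B12, at 54.5, was below ELOVL5, at 64.7, and the 1 gene above ELOVL5 was HACD3, at 65.6. With the union of exons none was above it. ELOVL2, another elongase of polyunsaturated fatty acids, was at 0.395 CPM per kilobase.

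LPCAT3 (chromosome 12, 6976185 to 7018476) places polyunsaturated chains in phosphatidylcholine and phosphatidylethanolamine. It had a mean log2 CPM of 6.38 from 1531 implied reads per library, and 37.2 CPM per kilobase. None of the 9 other acyltransferases was above it with the canonical transcript, and LPGAT1, with 33.1, was above it with either other length. The level of LPCAT3 is uncertain, because EMG1, transcribed from the opposite strand with a mean log2 CPM of 6.68, shared 1506 of the 2235 bases of the canonical LPCAT3 transcript, or 67.4%. The library kit keeps the strand, but whether the counting used it is not stated, and without strand the reads of both genes cannot be told apart.

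PLA2G6 (chromosome 22, 38111495 to 38181830) removes acyl chains, including oxidised ones, from phospholipids. Its 44.7 implied reads per library make it the least precisely counted member, with a counting error of about 6.11% over the 6 libraries together, beside 0.428% for SCD. Of the 11 other phospholipases A2, 5 were above PLA2G6 per kilobase, led by PNPLA8 with 27.7, and 2, PLA2G2A and PLA2G10, had no read. With the union of exons 6 were above PLA2G6. A lncRNA on the opposite strand overlapped 26.3% of the canonical PLA2G6 transcript, and its own level was not analysed here. MAFF, also on the opposite strand, had a mean log2 CPM of 5.28 and overlapped 326 bases of annotated PLA2G6 exons. That overlap was 4.0% of those exons, with none of it between the canonical transcripts. Whether the counting used strand is not stated, so the PLA2G6 level has an uncertainty that its counting error does not cover.

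AGPS (chromosome 2, 177392773 to 177543834), the peroxisomal enzyme that forms the ether bond of plasmalogens, had a mean log2 CPM of 7.11 from 2537 implied reads per library. Its canonical transcript of 7633 bases was the longest of the members, and AGPS moved from the fifth place by CPM to the sixth per kilobase. Of the 8 other ether lipid genes 5 were above it per kilobase, led by CHPT1 with 47.6. With either other length 4 were above it. GNPAT led at 39.0 with the longest transcript and SELENOI at 34.3 with the union of exons, beside CHPT1 at 17.2 and 12.5. POR (chromosome 7, 75915155 to 75986855), the cytochrome P450 oxidoreductase, had a mean log2 CPM of 4.73 from 489 implied reads per library. CYB5B, CYB5R1 and CYB5R3 were above POR per kilobase, with 37.5, 28.3 and 13.2, and CYB5A was below it with 4.24. With the union of exons, CYB5R3 was below POR as well.

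Of the 63 other genes of the pathway list 47 had at least 10 implied reads per library and 5 had none. Of all 28395 genes, 13773 had at least 10 and 7012 had none. At least 10 implied reads were found for 6 of 9 acyl-CoA synthetases, 3 of 5 desaturases, 10 of 11 elongation genes, 9 of 9 acyltransferases, 6 of 11 phospholipases A2, 8 of 8 ether lipid genes, 4 of 4 electron donors and 1 of 6 lipoxygenases. Lipoxygenases oxidise polyunsaturated fatty acids directly. Of the 6 listed, ALOX12 had 32.5 implied reads per library, the only one above 10, and ALOX5 had no read. ALOX15 and ALOX15B had 0.100 and 0.221 implied reads.

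**Figure D3:**
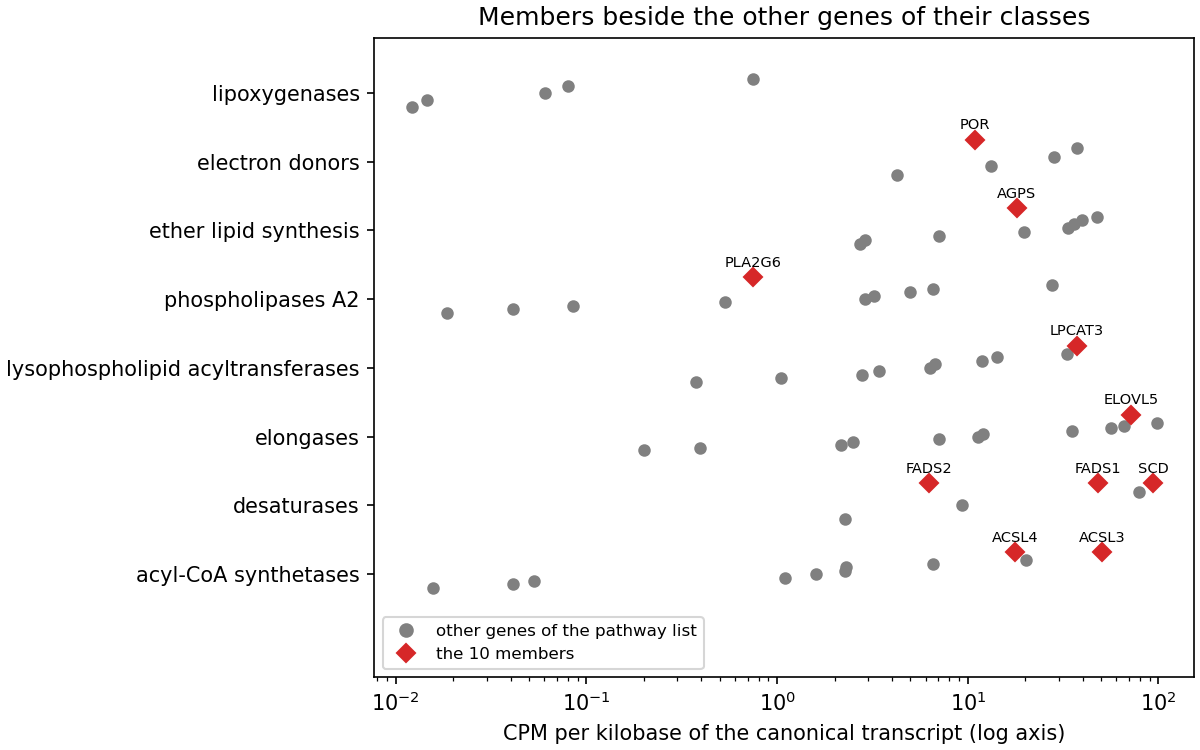
Each grey point is the CPM per kilobase of the canonical transcript, on a log axis, of 1 gene of the pathway list with a read, by class, and the red diamonds are the 10 members. The 5 genes with no read are not drawn, and all lipoxygenases lie at or below 0.750.

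The RefSeq windows of 300 bases around the transcription start, from 250 bases before to 50 after, were available for 9 members in GRCh38.p14, the assembly that hg38 denotes, with 2 overlapping windows for FADS2. The windows of SCD (chr10:100346983-100347282, plus strand) and PLA2G6 (chr22:38181781-38182080, minus strand) are shown because these genes were the highest and the lowest of the members. Capitals mark the GC box (GGGCGG), the CCAAT box (CCAAT) and the E-box (CACGTG), searched on both strands.
SCD: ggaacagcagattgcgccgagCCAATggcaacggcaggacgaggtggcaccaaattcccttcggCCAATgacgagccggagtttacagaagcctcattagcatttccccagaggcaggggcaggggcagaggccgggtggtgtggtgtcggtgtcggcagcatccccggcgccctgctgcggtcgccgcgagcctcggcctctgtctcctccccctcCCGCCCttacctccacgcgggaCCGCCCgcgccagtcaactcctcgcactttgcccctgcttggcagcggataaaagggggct
PLA2G6: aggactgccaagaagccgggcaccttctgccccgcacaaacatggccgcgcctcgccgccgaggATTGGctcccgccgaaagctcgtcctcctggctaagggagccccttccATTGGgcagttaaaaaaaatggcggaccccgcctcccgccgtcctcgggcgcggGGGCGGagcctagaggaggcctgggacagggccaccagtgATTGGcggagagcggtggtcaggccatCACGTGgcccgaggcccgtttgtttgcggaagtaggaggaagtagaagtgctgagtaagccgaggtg

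SCD held 2 GC boxes and 2 CCAAT boxes, and PLA2G6 held 1 GC box, 3 CCAAT boxes and 1 E-box. Over the members, 8 of 9 held a GC box in a window, beside 75.5% of genes with at least 10 implied reads, and 6 of 9 held a CCAAT box, beside 43.7%. An E-box was found for ELOVL5 and PLA2G6, beside 12.5%. The TATA box TATAAA, the sterol response core CACCCCAC and the antioxidant response core TGACNNNGC were in no member's window, beside 8.69%, 3.57% and 19.3% of those genes, which says only that these letters are not in these windows.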

How the data were processed

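RNA-seq of A375 cells was available as 1 table of the whole series. Per the labels and the methods of the study, the authors aligned paired-end reads to hg38 with HISAT2 2.1.0, counted them per gene with featureCounts 2.1.1 and fitted limma 3.58.1 with voom. How libraries were scaled, whether genes were filtered and whether counting used strand are not given in the sources used here. The deposited log2 values used here are the authors' mean log2 CPM over all libraries, with 0.5 added to each count. The table also holds the fold change, moderated t, p-values and log odds of the authors' comparison, which were not used, so no test was run. It has no column of a single library.

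A gene with no read in any library has the lowest value, which gives the library size. Counts with 0.5 added, each divided by 0.5 and multiplied over the 6 libraries, must give an odd whole number. Of 5057 low genes, 100% fell within 0.01 of such a number. The algebra was tested on simulated data. Implied reads are geometric means, approximate, after the authors' scaling. Errors of counting are 100 divided by the root of the reads of 6 libraries and cover counting error only.

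Transcript lengths and exons came from GENCODE 44, matched by Ensembl identifier for 25497 genes, and gene positions and promoter windows from RefSeq, matched by Gene number. Copies of coding sequences were sought with blastn 2.17.0 at 90% identity or more. Shares of promoters holding a motif are per gene, over all windows of a gene. The members and lists were chosen with earlier results of these data known, and the pairs of members compared as folds, the markers and pathway genes named beyond the highest of a class or those with no read, and the promoters shown were chosen after the levels were seen. The named-gene rule was all 10 members, and from each class of the pathway list the highest gene and those with no read.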

Additional observations from a re-analysis of the deposited data

How the results depend on the processing

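No paired analysis was possible because the deposited table holds no value of a single library, and the planned comparison of OZO with OLO, its filters, pseudocounts and left-out libraries were not run for the same reason. Of the pathway list, 74.6% had at least 10 implied reads per library, 87.3% at least 1 and 60.3% at least 100. The count of 7 members above the 75th percentile by CPM was 8 among all genes of the table and 7 among genes with at least 10 implied reads or among protein-coding genes. The count of 5 members above the 75th percentile per kilobase, among genes with at least 10 implied reads, was 5 under each length. The library size rests on the lowest value and the 0.5 added to each count. Taking it from the next lowest value rests on the same added count, so the same size from both is no independent check. Percentiles and levels per kilobase of single members moved with the setting, except SCD per kilobase, and FADS1 and PLA2G6 with the longest transcript. Depth limits what can be said of the genes with no read or few reads, and the spread between libraries is unknown for every gene.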
